A study of Homo sapiens with 8 samples.

Results

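The genes described here are asparagine synthetase (ASNS) and 9 amino acid transporter genes of the plasma membrane, SLC7A11, SLC7A5, SLC3A2, SLC7A1, SLC1A4, SLC1A5, SLC38A1, SLC38A2 and SLC6A9. They were chosen by name, with earlier results of these data known. Their rows were taken from both deposited count tables and summed by gene. All 10 were found, of 16169 genes listed in either table. The cells were Hep3B, a human hepatocellular carcinoma line, and 8 RNA-seq libraries were made in 4 conditions of 2 libraries each. Hep3B was the parental line, labelled wild type, and Hep3B SOX4-/- was labelled as a SOX4 knockout of it. Control si cells were Hep3B given a control siRNA, which the study calls scramble, and STAT6 si cells were Hep3B given siRNA against STAT6. All cultures grew in minimum essential medium with serum, sodium pyruvate and added non-essential amino acids, a supplement that contains asparagine. The study's methods name a pair of SOX4 knockout lines made with CRISPR/Cas9. The labels do not say which line each knockout library came from, nor that libraries of a group came from separate cultures. The p-values therefore measure only the spread between these libraries, which may be technical. In the knockout group it may also include differences between lines.

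Asparagine synthetase makes asparagine from aspartate and glutamine. The transporters are membrane proteins that exchange or import amino acids: SLC3A2 (4F2hc, CD98) is a heavy chain that pairs with light chains such as SLC7A5 (LAT1), which takes up large neutral amino acids, and SLC7A11 (xCT), which takes up cystine in exchange for glutamate. Many of these genes are known targets of ATF4, the transcription factor that cells make more of when amino acids run short or proteins misfold. In liver tumours, as in many dividing cells, they supply amino acids for protein synthesis, glutathione and nucleotides.

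In Hep3B SOX4-/- cells the transcripts of ASNS, SLC7A11, SLC3A2 and SLC6A9 fell, and their Hep3B means were 6.08, 7.30, 8.78 and 3.76 times their knockout means. SLC7A5, SLC7A1, SLC1A4, SLC1A5 and SLC38A1 were also lower in both knockout libraries than in both Hep3B libraries but did not pass the adjusted test, and SLC38A2 overlapped between the groups. After STAT6 siRNA none of the 10 genes passed the test in either direction, and all 10 overlapped between the STAT6 si and control si libraries. Levels per library are given as CPM, counts scaled to library size and normalized for library composition over all 8 libraries. Fold changes are log2 values from edgeR's quasi-likelihood test with its standard error, with p-values adjusted by Benjamini-Hochberg over all genes tested, and a gene was called where the adjusted p was under 0.05. In these bulk samples, fewer cells that express a gene and less RNA per cell cannot be told apart.

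The libraries held 16266282 to 25353113 estimated counts, and the 10 genes had 181 to 30435 counts each in a library. SOX4 was at 729 and 249 CPM in Hep3B and 261 and 271 in SOX4-/- (log2 fold change -0.83, adjusted p = 0.372 by edgeR), and an edited gene can still be transcribed, so this level does not check the knockout labels. STAT6 was at 46.2 and 33.9 CPM in control si and 11.5 and 6.49 in STAT6 si, lower in both but not past the adjusted test (log2 fold change -2.22, adjusted p = 1.00 by edgeR). In SOX4-/- STAT6 also fell, from 29.1 and 12.4 CPM to 2.42 and 1.98 (log2 fold change -3.18, adjusted p = 0.0275 by edgeR). The summed level of 8 hepatocyte marker genes was 9254 to 12924 CPM in Hep3B, 25461 to 41220.2 in SOX4-/-, 15075 to 15298 in control si and 17412 to 19701 in STAT6 si. APOA1, TTR and FGB of this list, which encode secreted liver proteins, rose in SOX4-/- (log2 fold changes 2.40, 3.14 and 2.53). The other 5 were not called, and of these AFP was below 0 (log2 fold change -0.76). ALB, at 24886 and 12270 CPM in SOX4-/-, was the largest part of the sums there (log2 fold change 1.56, adjusted p = 0.22 by edgeR). Of 12 markers of other cell types, 6 were in the tables and summed to 37.4 to 83.0 CPM in Hep3B and 169 to 402 in SOX4-/-, mostly from LYZ and CD68, with 69.0 to 90.2 in control si and 69.5 to 110.1 in STAT6 si. The leukocyte gene PTPRC and the endothelial gene PECAM1 stayed under 1 CPM in every library. Both marker sums were higher in both knockout libraries than in both Hep3B libraries, and their part in the results was not tested.

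SOX4 is a transcription factor that the study removed to find the genes it controls in these cells, and the comparison of Hep3B SOX4-/- with Hep3B asks which transcripts differ without it. Of the 10 genes, 4 were called lower and 0 higher, against 1.39% of the 14415 genes tested that were called lower and 5.89% called in either direction. Both knockout libraries lay below both Hep3B libraries for 9 of 10, against 29.7% of all genes, and 9 of 10 had an unadjusted p under 0.05 with a lower level, against 10.5%. The median log2 fold change was -1.81, against 0.01 over all genes, and all 10 were below 0, against 49.6% of all genes. As the 10 were chosen with earlier results of these data known, these shares describe them and do not test them as a set. The call count depended on single libraries: it was 0 without SOX4-/- library 1, 0 without SOX4-/- library 2 and 8 without Hep3B library 1, where the lone library of the smaller group was assumed to vary like the rest. It was 5 without Hep3B library 2. The median stayed between -2.33 and -1.41 in these 4 fits.

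ASNS (hg38 chromosome 7, 97852117 to 97872543 in the deposited table) is the only synthetase among the 10. It was at 338 and 241 CPM in Hep3B and 43.9 and 51.3 in SOX4-/-. The knockout libraries were close to each other and both far below the Hep3B pair. The log2 fold change was -2.55 (SE 0.38, n = 2 and 2, adjusted p = 0.0192 by edgeR), and ASNS kept an adjusted p under 0.05 in all 11 other settings that left out no library.

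SLC3A2 (chromosome 11, 62856012 to 62888884), the shared heavy chain, had the lowest fold change of the 10. Its level was 973 and 1453 CPM in Hep3B and 127 and 149 in SOX4-/-, with no overlap. The log2 fold change was -3.07 (SE 0.46, adjusted p = 0.0192 by edgeR), also past the threshold in all 11 of those settings.

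SLC7A11 (chromosome 4, 138164094 to 138242350), the cystine light chain, was at 151 and 249 CPM in Hep3B and 21.2 and 33.6 in SOX4-/-. Library 2 was the higher one in both groups, and the groups did not overlap. The log2 fold change was -2.81 (SE 0.42, adjusted p = 0.02 by edgeR). It did not pass when all 8 libraries were fitted together (adjusted p = 0.0672).

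SLC7A5 (chromosome 16, 87830023 to 87869495), the light chain for large neutral amino acids such as leucine, was at 665 and 1153 CPM in Hep3B and 160.5 and 348 in SOX4-/-. Library 2 was 1.73 times library 1 in Hep3B and 2.17 times in SOX4-/-. The log2 fold change of -1.78 (SE 0.53) had an adjusted p of 0.088 by edgeR and was not called. SLC7A1 (chromosome 13, 29509414 to 29595689), the CAT1 carrier of the cationic amino acids arginine, lysine and ornithine, was at 437 and 621 CPM in Hep3B and 81.6 and 204 in SOX4-/-. Its knockout libraries also stood apart from each other, and its log2 fold change was -1.83 (SE 0.51, adjusted p = 0.077 by edgeR).

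SLC1A4 (chromosome 2, 64988445 to 65023867) and SLC1A5 (chromosome 19, 46774883 to 46788586) encode ASCT1 and ASCT2, sodium-dependent exchangers of small neutral amino acids, of which ASCT2 also carries glutamine. SLC1A4 was at 249 and 309 CPM in Hep3B and 76.8 and 127 in SOX4-/- (log2 fold change -1.39, SE 0.39, adjusted p = 0.079 by edgeR). SLC1A5 was at 955 and 987 CPM in Hep3B and 204 and 415 in SOX4-/- (log2 fold change -1.59, SE 0.48, adjusted p = 0.0896 by edgeR). The Hep3B libraries nearly coincided for SLC1A5, while knockout library 2 was 2.03 times knockout library 1.

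SLC38A1 (chromosome 12, 46183056 to 46269426) and SLC38A2 (chromosome 12, 46358188 to 46372863) encode SNAT1 and SNAT2, sodium-coupled importers of small neutral amino acids including glutamine. SLC38A1 was at 562 and 415 CPM in Hep3B and 131 and 169 in SOX4-/-, without overlap (log2 fold change -1.65, SE 0.40, adjusted p = 0.0531 by edgeR). It lay just outside the threshold and was called in 5 of the 11 other settings. SLC38A2 was at 1576 and 474 CPM in Hep3B and 595 and 487 in SOX4-/-. Hep3B library 1 alone was high, and the other Hep3B library lay below both knockout libraries. The log2 fold change was -0.87 (SE 0.61, adjusted p = 0.401 by edgeR), and 0.21 without Hep3B library 1.

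SLC6A9 (chromosome 1, 43996483 to 44031493), the glycine transporter GLYT1, was the least abundant of the 10 in Hep3B per kilobase of transcript. It was at 48.7 and 48.3 CPM in Hep3B and 13.1 and 12.7 in SOX4-/-, and libraries of the same group nearly coincided. The log2 fold change was -1.85 (SE 0.35, adjusted p = 0.0319 by edgeR), and it did not pass when all 8 libraries were fitted together (adjusted p = 0.0618).

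All 10 fold changes were below 0 in the knockout comparison, and the sequence around their start sites was searched for letters that ATF4 is known to bind with its C/EBP partners. The letters TGATGNAA, the core of the CCAAT/enhancer-binding protein and ATF response element, were searched on both strands from 250 bases before to 50 bases after each start site in RefSeq (GRCh38.p14). They were present in 1270 of 35116 such windows (3.62%), or for 1217 of 27305 genes (4.46%). A window was available for 9 of the 10 genes, all but SLC7A11, and 6 of the 9 held a match, in 6 of their 16 windows. The genes were chosen by name and many are known ATF4 targets, so this share does not test the changes in these data. The match is shown in capitals within 30 bases, written 5′ to 3′ on the gene's own strand, so that a match on the opposite strand reads as its reverse complement.
ASNS chr7:97872458-97872487: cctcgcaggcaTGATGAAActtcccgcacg
SLC3A2 chr11:62881719-62881748: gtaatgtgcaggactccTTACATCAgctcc
SLC7A1 chr13:29595663-29595692: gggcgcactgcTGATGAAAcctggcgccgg
SLC1A4 chr2:64989381-64989410: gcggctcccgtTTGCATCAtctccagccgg
SLC1A5 chr19:46784893-46784922: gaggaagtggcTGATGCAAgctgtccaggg
SLC38A1 chr12:46266502-46266531: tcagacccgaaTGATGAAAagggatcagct
The match began 68 bases before the start site in ASNS and 97 bases before it in SLC1A5. It spanned the start site in SLC1A4 and SLC38A1 and lay after it in SLC3A2 and SLC7A1. For ASNS the RefSeq start site used, 97872408, lies inside the deposited span of the main transcript NM_001673, which begins at 97872543 on the minus strand. The ASNS match lies within that span. In both SLC1A5 and SLC3A2 the start site used is not the one of the main transcript. It lies near the deposited start of NM_001145145, with 0.552% to 3.02% of the SLC1A5 counts in a library, and at that of NR_037193, with 2.44% to 3.62% of the SLC3A2 counts. The gene is on the minus strand for ASNS, SLC7A1, SLC1A5 and SLC38A1, and on the plus strand for SLC3A2 and SLC1A4. SLC7A5, SLC38A2 and SLC6A9 held no match in their windows, which says only that these letters are not there. Among the 16 stress response genes described further on, 14 had a window and 3 held a match.

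A second set of letters, TGACNNNGC, the core of the antioxidant response element that NRF2 is known to bind, was searched in the same windows because SLC7A11 is a known NRF2 target. It occurred in 4687 of the 35116 windows (13.3%), or for 4384 genes (16.1%), and in 4 of the 9 genes with a window.
SLC3A2 chr11:62881651-62881680: acgagggtgggTGACTCAGCgtcctccttc
SLC7A5 chr16:87869491-87869520: ggcggggttccTGACGCAGCtgcgggcggc
SLC7A1 chr13:29595755-29595784: gtgcccggcggTGACGCGGCcgagcgggcc
SLC1A5 chr19:46787386-46787415: tcctggatcttGCGAGGTCAgctcccgctc
SLC3A2, SLC7A1 and SLC1A5 held both sets of letters, which overlapped in none of them, although in SLC1A5 the matches lay beside different start sites, the TGACNNNGC match beside that of NM_001145144, which is not the main transcript either. SLC7A5, which lies on the minus strand, held its TGACNNNGC match across the start site, and in SLC3A2 the TGACNNNGC match began 37 bases before it. A match is a description of the sequence, and no binding was measured in these libraries.

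STAT6 is a transcription factor activated by interleukin 4, and the comparison of STAT6 si with control si asks which transcripts change when it is lowered. In the edgeR fit of these 4 libraries, which left out the library number, none of the 10 genes was called. None had an unadjusted p under 0.05. DESeq2 also called 0 of the 10. This compares with 0.0% of the 13554 genes tested that were called, where 14 genes had an unadjusted p under 0.05 by edgeR and 16 by DESeq2, which called 0 as well. Both STAT6 si libraries lay below both control si libraries for 4.41% of all genes and above both for 3.27%, and for 0 of the 10 in either direction. The median log2 fold change of the 10 was -0.14, against -0.03 over all genes. The 14 genes are fewer than would pass an unadjusted p of 0.05 with no effect at all, so this fit was conservative. STAT6 itself was not called. In simulated counts the fit without the block called 82 of 200 changed genes, and 6 of the 50 lowered by 2 on the log2 scale. Unlike these data, the simulated counts held no difference shared by same-numbered libraries. Having 0 calls among the 10 therefore does not show that they were unchanged.

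ASNS was at 262 and 338 CPM in control si and 153 and 268 in STAT6 si, the lowest log2 fold change of the 10 here (-0.55, SE 0.57, adjusted p = 1.00 by edgeR). STAT6 si library 1 was the lowest of the 4, and STAT6 si library 2 lay just above control si library 1. Across the 11 other settings that left out no library its adjusted p ran from 0.0403 to 1.00, with 1 setting under 0.05.

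SLC7A11 was at 13.5 and 87.6 CPM in control si and 15.5 and 58.1 in STAT6 si (log2 fold change -0.48, SE 0.87). Libraries of the same group differed far more than the groups did. SLC3A2 was at 649.6 and 515 CPM in control si and 872 and 439.7 in STAT6 si, and its log2 fold change was 0.11 (SE 0.57). SLC7A5 was at 1189.9 and 1048 CPM in control si and 1681 and 967 in STAT6 si (log2 fold change 0.18, SE 0.56). For both of these genes STAT6 si library 1 was the highest and STAT6 si library 2 the lowest of the 4, so that no direction can be read.

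SLC1A5 had the same arrangement, with 1625 and 1015 CPM in control si and 2347 and 934 in STAT6 si (log2 fold change 0.24, SE 0.61). So did SLC1A4, at 234 and 214 CPM in control si and 255 and 175 in STAT6 si (log2 fold change -0.12, SE 0.55). SLC6A9 was at 50.0 and 39.4 CPM in control si and 62.5 and 34.9 in STAT6 si, again with both STAT6 si values outside the control pair on opposite sides (log2 fold change 0.06, SE 0.63). SLC7A1 was at 373 and 528 CPM in control si and 366 and 466 in STAT6 si, with 1 STAT6 si library just under the control pair and 1 between them (log2 fold change -0.16, SE 0.56). SLC38A1 was at 87.2 and 316 CPM in control si and 79.6 and 227 in STAT6 si (log2 fold change -0.42, SE 0.72). SLC38A2 was at 131 and 580.0 CPM in control si and 120.3 and 439.8 in STAT6 si (log2 fold change -0.37, SE 0.76). For both, library 2 was the higher one in each group by more than the groups differed.

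**Figure D1:**
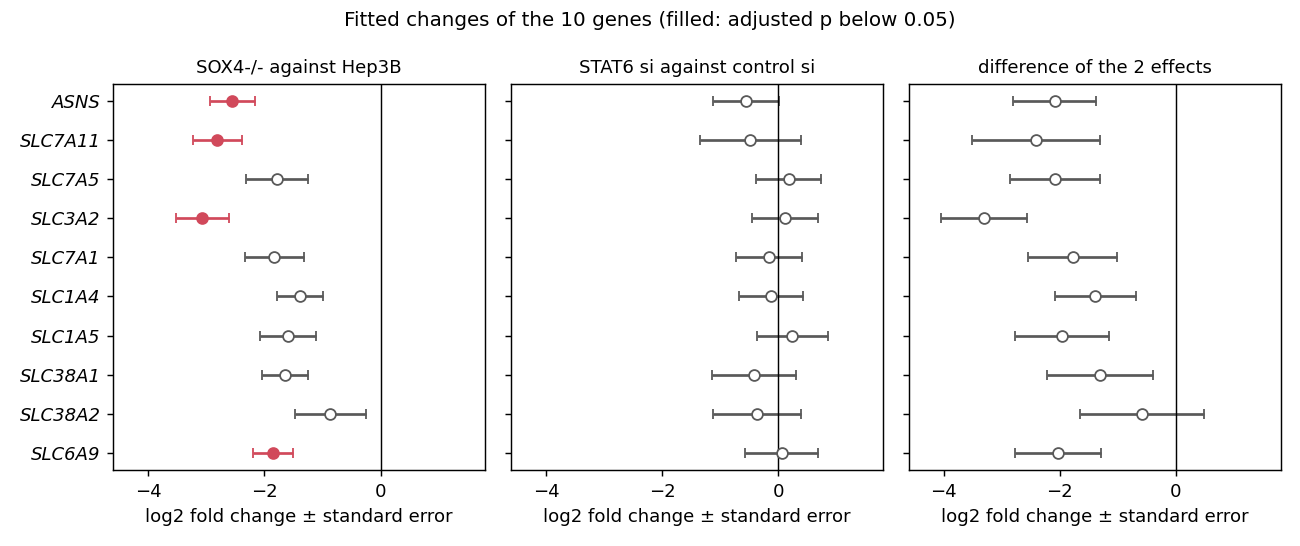
Log2 fold changes of the 10 genes with their standard errors for Hep3B SOX4-/- against Hep3B (left), STAT6 si against control si (middle) and the difference of both effects (right). Filled points passed an adjusted p of 0.05: ASNS, SLC7A11, SLC3A2 and SLC6A9 on the left, at -2.55, -2.81, -3.07 and -1.85, and none in the other panels.

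Whether the effect of SOX4 loss differed from that of STAT6 siRNA was tested directly, as a contrast of both effects in a fit of all 8 libraries. None of the 10 genes passed the adjusted test, against 0.0683% of 14632 genes (10 genes) called in either direction. In simulated counts, again with no difference shared by same-numbered libraries, this contrast called 16 of 200 changed genes. It called 0 of the 50 lowered by 2 on the log2 scale. The lack of calls therefore does not show that the effects were alike. All 10 contrasts were below 0, with a median of -2.0 against -0.08 over all genes, and 7 of 10 had an unadjusted p under 0.05 and a value below 0, against 2.34% of all genes. DESeq2 called 1 of the 10, SLC3A2. SLC3A2 had the lowest contrast (-3.31 on the log2 scale, SE 0.74, adjusted p = 0.119 by edgeR). ASNS had -2.09 (SE 0.71, adjusted p = 0.468 by edgeR), SLC7A11 -2.41 (SE 1.10), SLC7A5 -2.08 (SE 0.78) and SLC6A9 -2.03 (SE 0.74). The values were -1.96 for SLC1A5, -1.78 for SLC7A1, -1.39 for SLC1A4, -1.31 for SLC38A1 and -0.58 for SLC38A2.

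Ordered by mean CPM, SOX4-/- was the lowest of the 4 conditions for 9 of the 10 genes, the exception being SLC38A2. Its values did not overlap those of the next condition for 7 of these 9. The share of all genes with either pattern was not counted. In the knockout comparison alone, 29.7% of all genes had both SOX4-/- libraries below both Hep3B libraries. For SLC7A11, where STAT6 si came next with 15.5 and 58.1 CPM, and for SLC38A1, with 79.6 and 227, the neighbouring values overlapped. ASNS had means of 300.2 ± 53.3 CPM (SD, n = 2) in control si, 289.6 ± 69.1 in Hep3B, 210.4 ± 81.5 in STAT6 si and 47.6 ± 5.25 in SOX4-/-, and only the last stood apart from its neighbour. SLC7A11 had means of 200.0 ± 68.9 CPM in Hep3B, 50.6 ± 52.3 in control si, 36.8 ± 30.1 in STAT6 si and 27.4 ± 8.78 in SOX4-/-, and only Hep3B stood apart. SLC3A2 had 1213 ± 339 CPM in Hep3B, 656 ± 306 in STAT6 si, 582 ± 94.9 in control si and 138 ± 15.5 in SOX4-/-. Hep3B stood above and SOX4-/- below the siRNA conditions, which overlapped.

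SLC7A5 had means of 1324 ± 505 CPM in STAT6 si, 1119 ± 100.2 in control si, 909 ± 345 in Hep3B and 254 ± 133 in SOX4-/-. SLC1A5 followed the same order, with 1641 ± 999, 1320.1 ± 431, 971 ± 22.8 and 309.7 ± 149. In SLC1A5 Hep3B also stood apart from control si. SLC7A1 had 529 ± 131 CPM in Hep3B, 450.2 ± 109 in control si, 416 ± 71.0 in STAT6 si and 143 ± 86.4 in SOX4-/-, and the first 3 overlapped. SLC1A4 had 279 ± 42.1, 224 ± 14.5, 215 ± 56.6 and 102 ± 35.8 in the same order, with Hep3B apart from control si. SLC38A1 also kept that order, with 489 ± 104, 202 ± 162, 153 ± 105 and 149.6 ± 26.7, and only Hep3B stood apart. SLC6A9 had 48.7 ± 19.5 CPM in STAT6 si, 48.5 ± 0.327 in Hep3B, 44.7 ± 7.48 in control si and 12.9 ± 0.244 in SOX4-/-, and only the last stood apart. SLC38A2 had 1025 ± 779 CPM in Hep3B, 541 ± 76.6 in SOX4-/-, 355 ± 318 in control si and 280.0 ± 226 in STAT6 si, and every pair of neighbours overlapped. The Hep3B libraries and the control si libraries came in separate tables, and how the cultures, runs and transfection differed cannot be told apart in such comparisons across them.

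Added over the 10 genes, the level was 5955 and 5950.2 CPM in Hep3B, 1454 and 1996 in SOX4-/-, 4616 and 4681 in control si and 5952 and 4010.4 in STAT6 si. The knockout libraries held the lowest sums of the 8. To compare genes with each other, CPM was divided by the length of the main transcript in kilobases. On that scale SLC3A2 was the highest of the 10 in Hep3B, with 511 and 763 CPM per kb, and SLC1A5 was next with 331 and 342. In SOX4-/- SLC38A2 ranked first by its mean, with 122 and 99.6 CPM per kb, followed by SLC1A5 with 70.9 and 144 and SLC3A2 with 66.8 and 78.3. SLC1A5 overlapped both of the others there, and SLC38A2 lay above SLC3A2 in both libraries. In control si and STAT6 si SLC1A5 ranked first, with 564 and 352 CPM per kb in the former and 814 and 324 in the latter. SLC6A9 and SLC7A11 held the lowest 2 ranks in every condition, and SLC7A11 was at 15.7 and 25.8 CPM per kb in Hep3B and 2.20 and 3.49 in SOX4-/-.

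The heavy chain SLC3A2 was set against its light chains SLC7A5 and SLC7A11 on the same scale. The ratio of SLC3A2 to the sum of both light chains was 3.15 and 2.73 in Hep3B, 1.78 and 0.976 in SOX4-/-, 1.29 and 1.13 in control si and 1.23 and 1.05 in STAT6 si. It was highest in the parental libraries and did not separate the other conditions, and SLC3A2 has further light chain partners that this ratio leaves out. SLC7A5 exceeded SLC7A11 in every library, by 9.34 and 9.85 times in Hep3B and 16.1 and 22.0 times in SOX4-/-. In control si the ratio was 187 and 25.5, and in STAT6 si 231 and 35.4, with the larger value in library 1 of each.

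**Figure D2:**
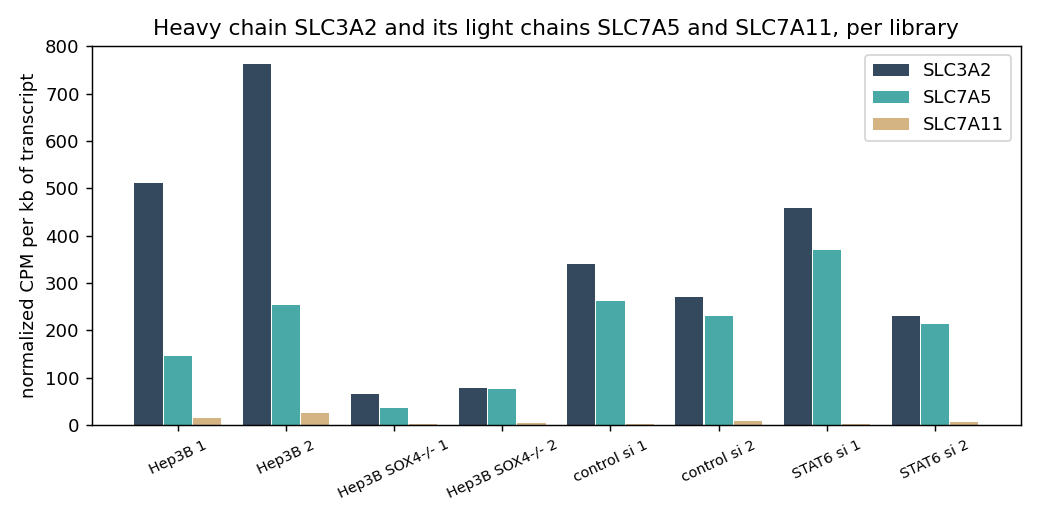
CPM per kilobase of transcript for the heavy chain SLC3A2 and the light chains SLC7A5 and SLC7A11 in each library, as bars from 0. SLC3A2 is the highest and SLC7A11 the lowest of the 3 in all 8 libraries, and SLC3A2 is close to SLC7A5 in SOX4-/- library 2, at 78.3 and 76.7.

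Libraries of the same siRNA group differed from each other in a way that followed the base composition of the transcripts. In control si, library 2 was 6.43 times library 1 for SLC7A11, 4.44 times for SLC38A2 and 3.62 times for SLC38A1, the 3 transcripts with the lowest GC content of the 10 (35.4%, 38.1% and 41.3%). For SLC1A5, with the highest GC content (61.3%), library 1 was 1.60 times library 2. STAT6 si showed the same arrangement, with library 2 at 3.74 times library 1 for SLC7A11 and library 1 at 2.51 times library 2 for SLC1A5. Across the 10 genes Spearman's rho between GC content and the log2 ratio of library 2 to library 1 was -0.93 in control si and -0.94 in STAT6 si, and across 13830 genes it was -0.72 and -0.78. In Hep3B it was 0.31 over the 10 and -0.09 over all, and in SOX4-/- 0.39 and 0.27. The genes of a library share its depth and preparation, so these values describe the libraries. With GC content and length taken into the fit as offsets, 4 of the 10 genes were still called in the knockout comparison and 0 in the siRNA comparison.

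The counts were deposited per RefSeq transcript. SLC7A11, SLC7A5 and SLC7A1 had 1 transcript each. For ASNS, NM_001673 took 70.5% to 89.9% of the gene's counts in a library, for SLC3A2 NM_001013251 took 80.5% to 90.2%, for SLC38A2 NM_018976 took 83.3% to 93.5%, and for SLC1A5 NM_005628 took 84.1% to 94.4%. The shorter SLC1A5 transcript NM_001145144 took 10.3% to 14.2% in the Hep3B and SOX4-/- libraries and 2.89% to 7.56% in the siRNA libraries. SLC38A1 was spread over more transcripts, with 43.6% to 58.6% on NM_001278389. Such shares are estimates where transcripts overlap. SLC7A11-AS1 and CCDC24 overlap SLC7A11 and SLC6A9 on the opposite strand, and whether the counting used strand is not given in the sources used here. SLC7A11-AS1 was at 1.98 CPM or less in every library. CCDC24 was at 1.04 and 0.990 CPM in Hep3B and 5.07 and 5.54 in SOX4-/-, where it reached a larger fraction of SLC6A9 (13.1 and 12.7 CPM). SLC7A5P1 and SLC7A5P2, near-identical copies of part of SLC7A5 whose reads the counting could split, had at most 4.30 and 5.15 CPM.

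Related genes were read from 6 lists in the knockout comparison, which were chosen with earlier results of these data known. Of 16 genes of the amino acid stress response, 7 fell and 0 rose, against 1.39% of all genes called lower. Among the 16, 15 were below 0, against 49.6% of all genes, and the median log2 fold change was -1.86. The 6 with the largest fold changes were DDIT4, an inhibitor of mTORC1 signalling (-3.29, adjusted p = 0.049 by edgeR), the secreted glycoprotein STC2 (-3.13), the transcription factor ATF3 (-2.88), PPP1R15A, which directs dephosphorylation of the initiation factor eIF2 (-2.55), the leucine sensor SESN2 (-2.46) and the transcription factor DDIT3 (-2.07). The seventh was CHAC1, which breaks down glutathione (-2.05). DDIT4, at 667 and 178 CPM in Hep3B and 21.6 and 62.3 in SOX4-/-, was not called in several other settings. These were the replicate block, edgeR's robust option, at least 10 counts in every library, and GC and length offsets with the block. STC2 was also not called with offsets and block. ATF4 itself was at 1496 and 1186 CPM in Hep3B and 399 and 519 in SOX4-/-, without overlap, and was not called (log2 fold change -1.49, SE 0.45, adjusted p = 0.0895 by edgeR). ATF4 was at 1390.1 and 1189 CPM in control si and 1239 and 1047 in STAT6 si. The count of 7 became 0 without either knockout library.

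Of 22 other amino acid transporters of the plasma membrane 18 were tested, and the median log2 fold change was 0.36. SLC38A3, the SNAT3 glutamine carrier of liver, rose from 16.3 and 14.8 CPM in Hep3B to 112 and 50.0 in SOX4-/- (2.45, SE 0.47, adjusted p = 0.0329 by edgeR). SLC7A2, a second cationic amino acid carrier, fell from 137 and 173 to 56.1 and 52.6 (-1.45, SE 0.34, adjusted p = 0.0494 by edgeR). Both calls were lost without either knockout library, with GC content and length as offsets and in the fit of all 8 libraries, and that of SLC7A2 also without Hep3B library 2. The call of SLC7A2 held in 4 of the 11 other settings that left out no library, and that of SLC38A3 in 8. Of 13 tested transporters of lysosomes and mitochondria none was called, none had an unadjusted p under 0.05, and the median was 0.02. SLC25A44, SLC25A13 and SLC38A7, with the highest mean CPM over the 8 libraries, had log2 fold changes of -0.03, 0.43 and 0.04.

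Of 12 tested enzymes of aspartate, asparagine and glutamine the median was 0.54, and 10 were above 0. GPT2, the mitochondrial alanine aminotransferase, fell (-2.02, adjusted p = 0.0385 by edgeR), and ASL, the urea cycle enzyme argininosuccinate lyase, rose (1.59, adjusted p = 0.0433). Of 10 genes of cystine use and glutathione, GSR, glutathione reductase, fell (-1.57, adjusted p = 0.0494 by edgeR), and ANPEP, a peptidase at the cell surface, rose (2.15, adjusted p = 0.0476), with a median of -0.17. These 4 calls were also lost without either knockout library, and that of ASL without Hep3B library 2. Of the 11 other settings, GPT2 was called in all 11, ASL in 8, GSR in 7 and ANPEP in 6. In the fit of all 8 libraries only GPT2 of the 4 was called, and without a filter on low counts, or with at least 10 counts in every library, GSR and ANPEP were not. Of 17 tested genes of amino acid sensing by mTORC1 none was called and none had an unadjusted p under 0.05. SESN2, which also belongs to this pathway and fell, is counted with the stress response genes and not here. MTOR, RPTOR and FLCN, with the highest mean CPM over the 8 libraries, had log2 fold changes of 0.12, 0.11 and -0.41, and the median was 0.12. After STAT6 siRNA, edgeR without a replicate block called no gene of any of these lists, and in the fit of this table none had an unadjusted p under 0.05. In the contrast of both effects edgeR called none either when all 8 libraries were fitted without the block. There 9 of the 16 stress response genes had an unadjusted p under 0.05, against 924 of the 14632 genes tested.

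Over the 8 libraries and 10993 genes with at least 100 counts per library on average, the genes whose log2 CPM followed ASNS most closely were APOPT1 (Pearson r = 0.998), UBAP1 (0.993), KCMF1 (0.986), PROSER1 (0.975), MAPKAPK5 (0.973), LOC101927746 (0.97), UBE3D (0.969), REPS1 (0.966), ELP3 (0.965) and NOA1 (0.964). ATF4 had r = 0.94, at rank 42. PROSER1 fell in SOX4-/- (log2 fold change -1.99, adjusted p = 0.0244 by edgeR). Of the other 9 genes described here SLC7A1 followed ASNS most closely (r = 0.898, rank 117) and SLC38A2 least (0.036). Within the 10, SLC7A5 and SLC1A5 had r = 0.97 with each other, SLC3A2 and SLC1A4 had 0.96, and SLC7A11 and SLC38A1 had 0.96. SLC38A2 had 0.85 with SLC38A1 and -0.53 with SLC1A5. These are descriptions over 8 libraries in which genes of like GC content share the differences between libraries described above.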

How the data were processed

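RNA was isolated with TRIzol and libraries were made with Illumina's stranded mRNA kit. The authors deposited expected counts, estimated per RefSeq transcript and not normalized, in 2 tables of 4 libraries. The submitters' processing notes name STAR, Partek and the hg38 build, and versions and the use of strand in counting are not given in the sources used here. Each table listed transcripts with a summed count of at least 10. Here counts were summed by gene (16038 and 14953 names), rounded and fitted per table with edgeR 4.0.16 in R 4.3.3 (TMM, filterByExpr, glmQLFit and glmQLFTest), and p-values were adjusted by Benjamini-Hochberg over 14415 and 13554 genes. The difference of effects was fitted over all 8 libraries, with 14632 genes and a gene missing from 1 table taken as 0 there. The scripts were tested on simulated counts. The 19 gene names in each table that a spreadsheet had turned into dates were split by chromosome.

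Transcript length and GC content came from GENCODE 29, for 15121 of 16169 genes. Alternatives were DESeq2 1.42.0, other normalization factors, other filters, edgeR options (legacy = FALSE was chosen after seeing the data, and legacy = TRUE, the default and the same fit, is not counted among the 11 other settings), the replicate number as a block, GC and length offsets (mgcv 1.9.3), a fit of all 8 libraries and leaving out each library. The members and lists were chosen with earlier results of these data known. All 10 genes are named whatever their values, with SOX4 and STAT6, up to 6 called genes of each list by size of fold change (or the 3 most abundant where none was called) and the 10 genes most like ASNS, and ATF4, CHAC1, overlapping genes and copies were added. Not every overlapping gene is reported here. Sequences are RefSeq's. Counts of 2 libraries per group limit the precision, and these counts are estimates of reads, not of molecules.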

Additional observations from a re-analysis of the deposited data

How the results depend on the processing

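For SOX4-/- against Hep3B, 4 of the 10 genes were called, and the other settings that left out no library gave between 4 and 5, except DESeq2 with 9 and the fit of all 8 libraries with 2. Leaving out each library gave 0 to 8 calls (0 without either knockout library, 8 without Hep3B library 1), and SLC38A2 ran from -1.51 to 0.21. Over all genes tested, edgeR called 849, against 2160 by DESeq2, 518 with at least 10 counts in every library, 560 with GC content and length offsets, 238 with those offsets and the replicate block, 572 in the fit of all 8 libraries, and 21 to 2298 when each library was left out. Of the 849 calls 648 were higher, and DESeq2 called 1380 higher and 780 lower. With GC and length offsets the median of all genes moved from 0.008 to -0.102.

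For STAT6 si against control si, 0 of the 10 were called, except 1 (ASNS, adjusted p = 0.0403 by edgeR) with GC content and length offsets and the replicate block. With single libraries omitted, the median of the 10 spanned -0.19 to 0.03, the latter without control si library 2. With the offsets alone, then with offsets and block, 4 genes turned below 0: SLC7A5 (-0.08 and -0.08), SLC3A2 (-0.15 and -0.13), SLC1A5 (-0.00 and -0.02) and SLC6A9 (-0.21 and -0.20). Leaving out each library moved SLC7A11 from -1.82 to 1.43, SLC7A5 from -0.21 to 0.48, SLC3A2 from -0.41 to 0.48, SLC7A1 from -0.41 to 0.12, SLC1A4 from -0.35 to 0.08, SLC1A5 from -0.50 to 0.73, SLC38A1 from -1.45 to 0.80, SLC38A2 from -1.67 to 1.09 and SLC6A9 from -0.36 to 0.38. The sign of these 9 thus depended on the library left out. ASNS stayed below 0, from -1.08 to -0.16. Such fits leave library numbers unequal between groups, and same-numbered libraries deviated alike (correlation 0.87). Within a number, STAT6 si lay below control si in both pairs for SLC7A1 (log2 ratios -0.03 and -0.18), SLC38A1 (-0.13 and -0.48), SLC38A2 (-0.12 and -0.4) and ASNS (-0.78 and -0.33). For SLC7A11, SLC7A5, SLC3A2, SLC1A4, SLC1A5 and SLC6A9 the pairs had opposite signs. Over all genes the replicate block gave 62 calls and the block with offsets 300, against 0. Of the other lists, offsets with block called 3 genes, SLC6A14 (0.79), SLC7A6 (-0.48) and CTNS (0.44), with adjusted p by edgeR of 0.0202, 0.0143 and 0.0493, and no other setting called any.

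For the contrast of both effects, 0 of the 10 were called, against 1 by DESeq2 (SLC3A2), 1 with GC content and length offsets (SLC3A2) and 2 with the replicate block (SLC3A2 and SLC7A11). Leaving out each library gave 0 to 1 calls (SLC7A11 without control si library 2), and SLC38A2 ran from -2.03 to 0.65. Over all genes 10 were called, 146 by DESeq2, 102 with the block and 34 with the offsets, and the median of all genes was -0.078, or 0.071 with upper-quartile factors. Of the stress response genes 0 were called, against 3 by DESeq2 (DDIT4, SESN2 and STC2), 2 with the block (SESN2 and CHAC1), 1 with offsets and block (SESN2) and 1 without control si library 1 (DDIT4). The cause of these changes was not tested.

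The replicate numbers are shared by the groups, but no label ties a number to a batch and each comparison has 2 pairs. Deviations of same-numbered libraries correlated at -0.08 between Hep3B and SOX4-/- and at 0.87 between control si and STAT6 si. With the block 5 of the 10 genes were called in the knockout comparison. In the siRNA comparison the fit without the block called 0 genes, against 62 with the block and 300 with offsets and block. The last of these called 1 of the 10, ASNS, whose STAT6 si and control si libraries overlapped. With 2 libraries per group, a lack of calls without the block does not show that there were no changes inside the spread of a group.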
